A study of Mus musculus with 12 samples.

Results

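The 7 genes described here form the core of the Hedgehog signalling pathway: the secreted ligand Shh, its receptor Ptch1, the ligand-binding membrane protein Hhip, the signal transducer Smo and the transcription factors Gli1, Gli2 and Gli3. They were chosen by name as pathway members, not by measured values, but with earlier results of these data known. Their symbols were matched to the Entrez numbers in the deposited tables (Shh 20423, Ptch1 19206, Hhip 15245, Smo 319757, Gli1 14632, Gli2 14633 and Gli3 14634). All 7 had values at both ages, among 17665 genes with values in both tables. The series measured RNA from the epidermis of dorsal mouse skin (strain background C57BL/6) in 12 libraries, 3 for each genotype at postnatal day 36 (P36) and 3 for each at 6 months. It asks what follows when Vdr, the vitamin D receptor, and Med1, a Mediator subunit that works with it, are removed from keratinocytes. Both genotypes carried the floxed alleles VDR fl/fl and Med1 fl/fl. Control mice had no Cre transgene (K14 Cre-/-), and double knockout (DKO) mice carried it (K14 Cre+/-). The keratin 14 promoter drives Cre in basal keratinocytes and their descendants, hair follicle epithelium included, so dermal cells keep both genes. The epidermis was separated from heated skin by hand, per the labels' protocols.

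Shh binds Ptch1, which otherwise holds Smo inactive. Active Smo moves into the primary cilium and lets Gli2 and Gli3 act as activators instead of being cut into repressors, and Gli1, Ptch1 and Hhip are themselves switched on by Gli proteins, so that their RNA is commonly read as pathway output. In skin, Shh is made by epithelial cells at the base of growing hair follicles and signals to neighbouring epithelium and to the dermal papilla, where it sustains follicle growth, and its RNA is low in resting follicles.

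The targeted genes were examined first, because they check the labels. Med1 fell in the libraries labelled DKO at P36, from 13.2 to 14.2 FPKM in the 3 control libraries to 8.2 to 10.3 (log2 fold change −0.55, limma adjusted p = 0.0083). In the older mice the ranges were 12.7 to 16.7 and 11.4 to 11.9 FPKM (−0.26, limma adjusted p = 0.13). Vdr was not lower in these libraries: its mean was 68 FPKM in control and 83.5 in the libraries labelled DKO at P36 (log2 fold change 0.29, limma adjusted p = 0.0573), and 40.5 and 48.1 FPKM at 6 months (0.27, limma adjusted p = 0.302). FPKM, the fragments of a gene scaled by its length and by the library total, counts reads from all exons, so a gene that lost 1 exon can keep its value. Since Vdr goes against the label, each genotype direction below is given for the libraries as labelled. Read totals are not known from the tables, so no counting interval is given, and the FPKM columns summed to 446617 to 554382. Epidermal keratins were high in every library (Krt14, a basal keratin, had 1132 to 3388 FPKM), and markers of dermis were present in every library too, since the mean of 11 fibroblast markers was 4.10 to 5.90 on the log2(FPKM + 1) scale. Nothing in the labels says that the 3 libraries of a group came from different mice, and the p-values reflect only how these libraries vary.

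Promoter windows from RefSeq (build GRCm38.p6) were matched for 5 of the 7 genes, Ptch1, Smo, Gli2, Gli3 and Hhip; Shh and Gli1 had no entry in the table used here. The 250 bases before the annotated start are shown for Ptch1 and Smo, which were lower in the libraries labelled DKO at 6 months, and for Gli2, the only one of the 5 with a short form of the Gli motif. Each runs 5′ to 3′ on the strand of its gene. Capitals mark GGGCGG, a GC box bound by Sp family factors, or ACCACCC, the short form of the Gli motif, on either strand. Ptch1 lies at chr13:63565736-63565985 on the minus strand, Smo at chr6:29735247-29735496 on the plus strand and Gli2 at chr1:119053620-119053869 on the minus strand.
Ptch1: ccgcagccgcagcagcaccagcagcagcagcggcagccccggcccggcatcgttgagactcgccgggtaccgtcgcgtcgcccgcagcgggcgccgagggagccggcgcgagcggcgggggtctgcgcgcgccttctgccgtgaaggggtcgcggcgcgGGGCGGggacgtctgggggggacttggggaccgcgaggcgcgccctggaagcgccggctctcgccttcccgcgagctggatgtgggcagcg
Smo: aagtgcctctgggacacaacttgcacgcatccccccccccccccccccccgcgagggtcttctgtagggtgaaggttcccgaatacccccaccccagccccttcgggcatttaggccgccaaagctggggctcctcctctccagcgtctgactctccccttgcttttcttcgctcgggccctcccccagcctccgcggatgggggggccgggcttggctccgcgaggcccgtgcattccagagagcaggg
Gli2: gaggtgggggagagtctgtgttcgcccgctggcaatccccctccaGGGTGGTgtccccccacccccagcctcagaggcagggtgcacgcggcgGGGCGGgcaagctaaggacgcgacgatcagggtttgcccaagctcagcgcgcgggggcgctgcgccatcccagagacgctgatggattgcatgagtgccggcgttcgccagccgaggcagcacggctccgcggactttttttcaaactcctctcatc
These windows were rich in G and C, at 78.4% for Ptch1, 68.4% for Smo and 67.2% for Gli2 against a median of 52.4% over 32851 windows, and held 41, 15 and 22 CpG pairs against a median of 6. The search took both strands of 300 bases, 250 before and 50 after the start. The full Gli motif GACCACCCA was in 0 of the 5 windows and in 0.253% of all windows, and ACCACCC, which lies within it, was in 1 of the 5 and in 4.61% of all. That match lies in Gli2, on the strand opposite to the gene, from 205 to 199 bases before the start. The GC box was in 4 of the 5, all but Smo, and in 35.7% of all windows. Direct repeats spaced by 3 bases, the arrangement the vitamin D receptor prefers, were searched as pairs of AGGTCA, of AGTTCA and of GGTTCA. None was in the 5 windows, and the first and last were each in 0.00609% of all windows. These are matches of letters in a short window and say nothing of binding.

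At P36 the ligand and its receptor were lower in the libraries labelled DKO. Shh stood at 7.23, 10.43 and 7.5 FPKM in the 3 control libraries and at 6.7, 3.56 and 3.25 in the 3 libraries labelled DKO, and Ptch1, the receptor and a pathway target, at 12.33, 12.1 and 11.91 against 10.11, 6.45 and 6.98 FPKM. For both genes every library labelled DKO lay below every control library, and replicate 1 of the DKO group lay closest to control. The mean of Shh was 53.7% of control (log2 fold change −0.81, SE 0.24, limma adjusted p = 0.0437) and that of Ptch1 64.8% (−0.59, SE 0.15, limma adjusted p = 0.0268). Fold changes are differences of log2(FPKM + 1), which understate the change of low genes, and a gene was called at a limma adjusted p below 0.05 over all genes tested. So 2 of the 7 genes fell and 0 rose, where 23.3% of the 12660 genes tested were called, 5.32% lower and 18% higher. Both calls are fragile. They were lost when any one of the 3 control libraries, DKO replicate 2 or DKO replicate 3 was left out, with adjusted p up to 0.144 for Shh and 0.0987 for Ptch1, while without DKO replicate 1 the gene Gli1 was called as well (log2 fold change −0.72, limma adjusted p = 0.029).

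**Figure D1:**
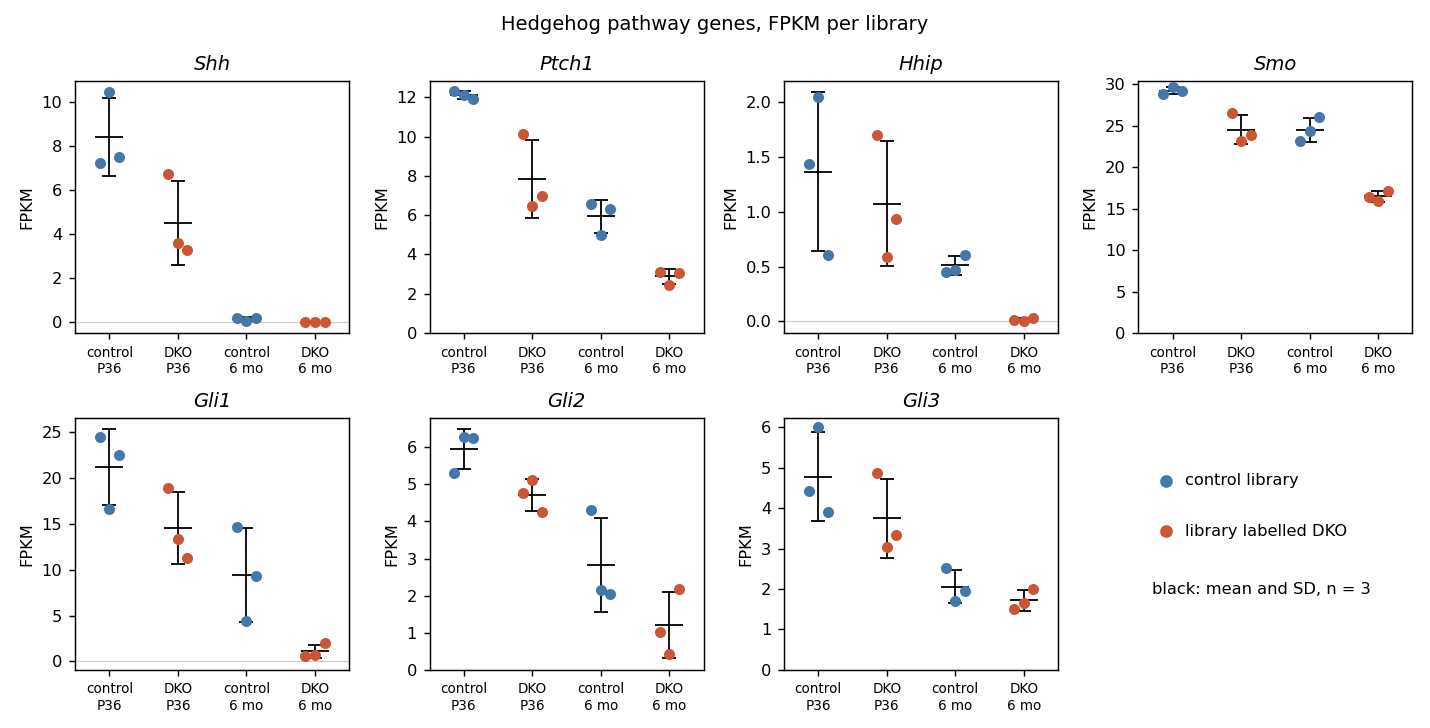
FPKM of each Hedgehog gene in the 12 libraries, 1 point per library, with the mean and SD of each group of 3 in black and a linear axis from 0 in every panel. Shh falls from 3.25 to 10.43 FPKM at P36 to at most 0.18 at 6 months, and Gli1 is at 0.65 to 1.96 FPKM in the libraries labelled DKO at 6 months.

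The other 5 genes were not called at P36. Gli1, the activator whose RNA follows pathway activity, had 24.51, 16.61 and 22.52 FPKM in control and 18.94, 13.4 and 11.32 in the libraries labelled DKO (log2 fold change −0.53, SE 0.20, limma adjusted p = 0.102). These groups overlap, since DKO replicate 1 exceeded control replicate 2. Gli2, the main activator downstream of Smo, had 5.32, 6.27 and 6.25 against 4.76, 5.12 and 4.25 FPKM (−0.28, SE 0.12, limma adjusted p = 0.123), and Smo had 28.82, 29.7 and 29.14 against 26.48, 23.22 and 23.94 (−0.24, SE 0.09, limma adjusted p = 0.078). In both, all libraries labelled DKO lay below all control libraries by a small margin. Gli3, which acts largely as a repressor, had 4.42, 6.01 and 3.9 against 4.87, 3.03 and 3.33 FPKM (−0.29, SE 0.19, limma adjusted p = 0.332). Hhip, a target that sequesters ligand, had 1.44, 2.05 and 0.61 against 1.7, 0.59 and 0.93 FPKM, the widest spread relative to its level (−0.18, 95% interval −0.81 to 0.46, limma adjusted p = 0.708). Groups were apart for 4 of the 7 genes, Shh, Ptch1, Gli2 and Smo, where 9.63% of all genes tested, and 7.66% of all genes with values, had every library labelled DKO below every control library. The median log2 fold change of the 7 genes was −0.29, and that of all genes tested was 0.09.

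At 6 months the gap between genotypes was wide for Gli1 and present for Ptch1 and Smo. Gli1 had 14.62, 4.38 and 9.33 FPKM in control and 0.65, 0.68 and 1.96 in the libraries labelled DKO. Even the lowest control library lay above the highest library labelled DKO, although control libraries themselves spanned a wide range. The mean fell to 11.6% of control (log2 fold change −2.24, SE 0.41, limma adjusted p = 0.00498). Ptch1 had 6.56, 4.97 and 6.29 against 3.13, 2.44 and 3.07 FPKM, a mean of 48.5% of control (−0.84, SE 0.14, limma adjusted p = 0.00411). Smo, which the pathway regulates by position rather than by amount, had 23.19, 24.32 and 26.07 against 16.41, 15.89 and 17.16 FPKM, or 67.2% of control (−0.54, SE 0.09, limma adjusted p = 0.0038). Groups did not overlap for either, and their libraries differed little within a group. Of the 5 genes that passed the filter of at least 1 FPKM in at least 3 libraries, 3 fell and 0 rose, where 41.3% of 12594 genes tested were called, 18.2% lower and 23.2% higher. All 3 calls held with any one library left out, with adjusted p up to 0.0268 for Gli1, 0.0192 for Ptch1 and 0.0198 for Smo.

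Gli2 and Gli3 were not called at 6 months. Gli2 had 4.3, 2.15 and 2.04 FPKM in control and 1.02, 0.43 and 2.19 in the libraries labelled DKO (log2 fold change −0.82, SE 0.34, limma adjusted p = 0.0891). The overlap comes from DKO replicate 3, and without that library Gli2 was called lower (−1.12, limma adjusted p = 0.0205). It was also called lower with all libraries kept, in the joint fit of both ages (−0.82, limma adjusted p = 0.0262). Gli3 had 2.52, 1.71 and 1.95 against 1.51, 1.64 and 2.01 FPKM and overlapped (−0.17, 95% interval −0.53 to 0.20, limma adjusted p = 0.421). DKO replicate 3 was the highest of its group for Gli1, Gli2, Gli3, Hhip and Smo. The same library had more RNA of fibroblast markers (mean log2(FPKM + 1) of 11 genes 5.58, against 4.13 and 4.10 in the other libraries of its group), of dermal papilla markers (15 genes, 1.49 against 0.97 and 0.93) and of skeletal muscle markers (11 genes, 3.35 against 1.09 and 0.57). It was also highest for bulge and hair germ markers (14 genes, 3.24 against 2.82 and 2.62). Hair shaft and inner root sheath markers were highest there too (16 genes, 1.27 against 0.19 and 0.38). Its epidermis markers were not the highest (9 genes, 8.63 against 8.79 and 8.53). The part of these markers in its higher Hedgehog values was not tested.

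**Figure D2:**
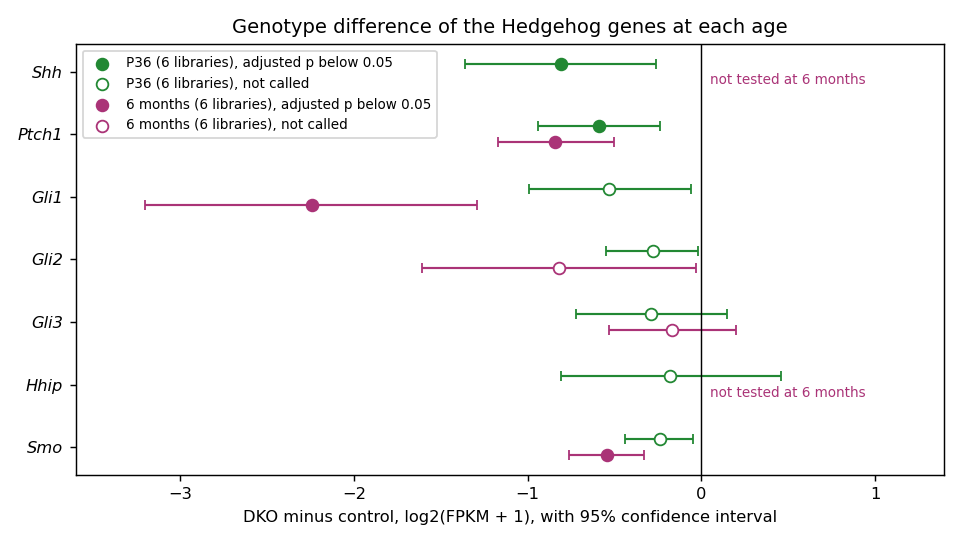
Log2 fold change of each Hedgehog gene in the libraries labelled DKO against control, on the log2(FPKM + 1) scale with 95% confidence intervals from limma, at P36 in green and at 6 months in purple. Filled points passed an adjusted p of 0.05, which were Shh and Ptch1 at P36 and Ptch1, Gli1 and Smo at 6 months.

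Shh and Hhip did not pass the filter at 6 months and were tested apart. Shh had 0.18, 0.04 and 0.17 FPKM in control and was listed at 0 in all 3 libraries labelled DKO, so no fold is given. Hhip had 0.45, 0.47 and 0.61 against 0.01, 0 and 0.03 FPKM, a mean of 2.61% of control. In both genes all 3 libraries labelled DKO lay below all control libraries, and an exact two-sided permutation test gave p = 0.1 for each, the smallest that 3 against 3 allows. With no filter on low values, limma over 17750 genes gave adjusted p = 0.00129 for Hhip and adjusted p = 0.0534 for Shh. The 12 housekeeping genes looked up had at least 9.2 FPKM in every library. Genes that abundant cannot show whether a 0 is a true value for a gene as low as Shh or Hhip. The depth behind these low values is unknown. Groups were apart for 5 of all 7 genes at 6 months (Shh, Ptch1, Gli1, Hhip and Smo), where 20.6% of all 17750 genes with values, and 24% of those tested, had every library labelled DKO below every control library. Among the 5 genes tested the median log2 fold change was −0.82, against 0.04 over all genes tested.

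The authors' deposited table gives a log2 ratio for every one of the 7 genes at both ages, all below 0. For Shh the authors' deposited table lists −0.9 at P36 and −5.09 at 6 months, for Hhip −0.35 and −5.2, and for Gli1 −0.54 and −3.1. The authors' deposited table has a q-value below 0.05 for 69.9% of genes at P36 and 80.6% at 6 months.

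The size of the genotype effect was compared between the ages in 1 fit of all 12 libraries. Of the 7 genes only Gli1 was called, with a genotype effect further below 0 at 6 months than at P36 (6 months minus P36, −1.72 on the log2 scale, SE 0.50, limma adjusted p = 0.0209), where 34.9% of 13280 genes were called, 21.1% with a lower and 13.8% with a higher value. The call was lost without DKO 6-month replicate 2 (−1.58, limma adjusted p = 0.0525). For the other genes the difference was −0.30 for Smo (limma adjusted p = 0.0614), −0.54 for Gli2 (95% interval −1.37 to 0.29), −0.40 for Hhip (−1.11 to 0.31; called with a pseudocount of 0.1, at −2.13 and limma adjusted p = 0.0228), −0.25 for Ptch1 (−0.72 to 0.23) and 0.12 for Gli3 (−0.43 to 0.67). Shh gave 0.63 (−0.01 to 1.27, limma adjusted p = 0.114), but its values at 6 months leave little room to fall on this scale, and with a pseudocount of 0.1 the sign turned (−0.20). It was called higher without DKO P36 replicate 1 (0.90, limma adjusted p = 0.00861) and with median-ratio scaling or array weights. So a wider gap at 6 months passed the test for Gli1, that of Hhip depended on the pseudocount, and for the others these libraries do not settle whether the gap differs between ages.

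Between P36 and 6 months all 7 genes fell in control, where 63.1% of 13280 genes were called, 27.9% lower and 35.3% higher. Shh and Hhip were below 1 FPKM in every 6-month library of both genotypes. They passed the filter through P36 libraries only, which selects for a fall, so their calls are no independent support. The fall was steepest for Shh, whose 6-month mean was 1.55% of that at P36 (log2 fold change −3.04, SE 0.21, limma adjusted p = 2.41e-07). Ptch1 was at 49% (−0.93, limma adjusted p = 0.000258), Gli1 at 44.5% (−1.20, limma adjusted p = 0.0108), Gli2 at 47.6% (−0.90, limma adjusted p = 0.0115), Gli3 at 43.1% (−0.91, limma adjusted p = 0.000859) and Hhip at 37.3% (−0.60, limma adjusted p = 0.0377). Smo kept most of its level, at 83.9% (−0.24, limma adjusted p = 0.0198). Control libraries at 6 months thus held 4.38 to 14.62 FPKM of Gli1 with at most 0.18 FPKM of Shh. The other ligands of the family had 0.49 to 0.63 FPKM (Dhh) and 0.1 to 0.19 FPKM (Ihh) in these libraries. Hhip did not pass the filter without control P36 replicate 1 or 2 or DKO P36 replicate 1 and was not called without any one of the 3 control libraries of 6 months, and Smo was not called without control P36 replicate 2 or control 6-month replicate 1 or 2. The other 5 calls held with each library left out. With totals that leave out keratin and cornified envelope genes, Hhip (limma adjusted p = 0.0531) and Smo (0.242) were not called.

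The libraries labelled DKO also had lower values of all 7 genes at 6 months, where 60% of genes were called, 32% lower and 28% higher. The limit set by the filter holds here too for Shh and Hhip. The log2 fold change was −2.92 for Gli1 (limma adjusted p = 4.19e-05), whose mean was 7.54% of that at P36, and −2.41 for Shh (limma adjusted p = 4.48e-06). Gli1 thus fell further with age in the libraries labelled DKO than in control, which is the difference tested above. The other genes had −1.44 for Gli2, −1.17 for Ptch1, −1.0 for Hhip, −0.79 for Gli3 and −0.55 for Smo, with limma adjusted p of at most 0.00295; Hhip again did not pass the filter without those 3 libraries of P36, and the other calls held with each library left out. FPKM is scaled within each library, but the ages were deposited in separate tables, and age and table cannot be told apart.

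The order of the levels changed with age and genotype, on the FPKM scale that corrects for gene length. Smo had the highest mean in all 4 groups. In control at P36 the order was Smo (29.2), Gli1 (21.2), Ptch1 (12.1), Shh (8.39), Gli2 (5.95), Gli3 (4.78) and Hhip (1.37 FPKM), and the libraries of neighbours overlapped only between Gli2 and Gli3. At 6 months in control Shh was last at 0.13 FPKM, and Gli1 (9.44) overlapped with Ptch1 (5.94). In the libraries labelled DKO at 6 months Gli1 was the fifth at 1.1 FPKM, below Ptch1 (2.88), Gli3 (1.72) and Gli2 (1.21), where Gli3 overlapped with Gli2 and Gli2 with Gli1. Gli1 therefore went from the most abundant of the 3 Gli genes to the last of them by mean.

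The other ligands of the family were low in every library. Dhh, a ligand of Schwann cells and gonads, had 0.13 to 0.84 FPKM over the 12 libraries, and Ihh, a ligand of cartilage and sebocytes, 0.09 to 0.22, both below the filter. Among 7 genes for other ligands and ligand release, 1 of 5 tested fell at P36 and 1 of 2 at 6 months, and 0 rose. Over all genes tested 5.32% were lower and 18% higher at P36, and 18.2% lower and 23.2% higher at 6 months. Scube2, which helps to release the lipid-modified ligand, went from 3.09 ± 0.917 to 1.47 ± 0.391 FPKM at P36 (SD, n = 3; log2 fold change −0.71, limma adjusted p = 0.0399), a call lost without any one of 5 of the 6 libraries. Disp1, the transporter that releases it, went from 2.90 ± 0.526 to 0.783 ± 0.208 FPKM at 6 months (SD, n = 3; −1.13, limma adjusted p = 0.00216). It was below 1 FPKM in all 3 libraries labelled DKO, so it passed the filter through control only and had to differ.

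Gas1 and Gpc3 were higher at P36 and lower at 6 months in the libraries labelled DKO. Of 6 receptor and coreceptor genes listed, 4 were tested at P36, where 2 rose and 0 fell, and 4 at 6 months, where 4 fell and 0 rose. The shares over all genes tested were 18% higher and 5.32% lower at P36, and 23.2% higher and 18.2% lower at 6 months. Gas1, a coreceptor that binds Shh, had 17.1, 15.54 and 20.93 against 23.35, 32.36 and 30.14 FPKM at P36 (log2 fold change 0.65, limma adjusted p = 0.0175) and 33.94, 36.57 and 38.03 against 20.5, 15.88 and 29.97 at 6 months (−0.73, limma adjusted p = 0.028). It was thus above control at the earlier age and below it at the later. Its P36 call was lost with median-ratio scaling, with no filter and when control replicate 1 or 2 or DKO replicate 2 or 3 was left out. Gpc3, a glypican that competes with Ptch1 for the ligand, had 5.3, 6.62 and 3.75 against 22.99, 10.23 and 11.58 FPKM at P36 (1.30, limma adjusted p = 0.0155) and 4.28, 2.78 and 7.23 against 0.89, 0.96 and 1.79 at 6 months (−1.33, limma adjusted p = 0.0114). Its groups did not overlap at either age, and its P36 call was lost with no filter (limma adjusted p = 0.0867). The coreceptors Cdon and Boc fell at 6 months (−0.90, limma adjusted p = 0.00447, and −1.03, limma adjusted p = 0.0164), and the call of Boc was lost without DKO 6-month replicate 2. Gas1, Cdon and Boc are also made by dermal cells. Of 11 fibroblast markers 6 rose at P36 with 0 lower, while 2 fell at 6 months with 0 higher. The 2 of 11 lie near the 18.2% of all genes that were lower at 6 months. The part of dermal cells in these changes was not tested.

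**Figure D3:**
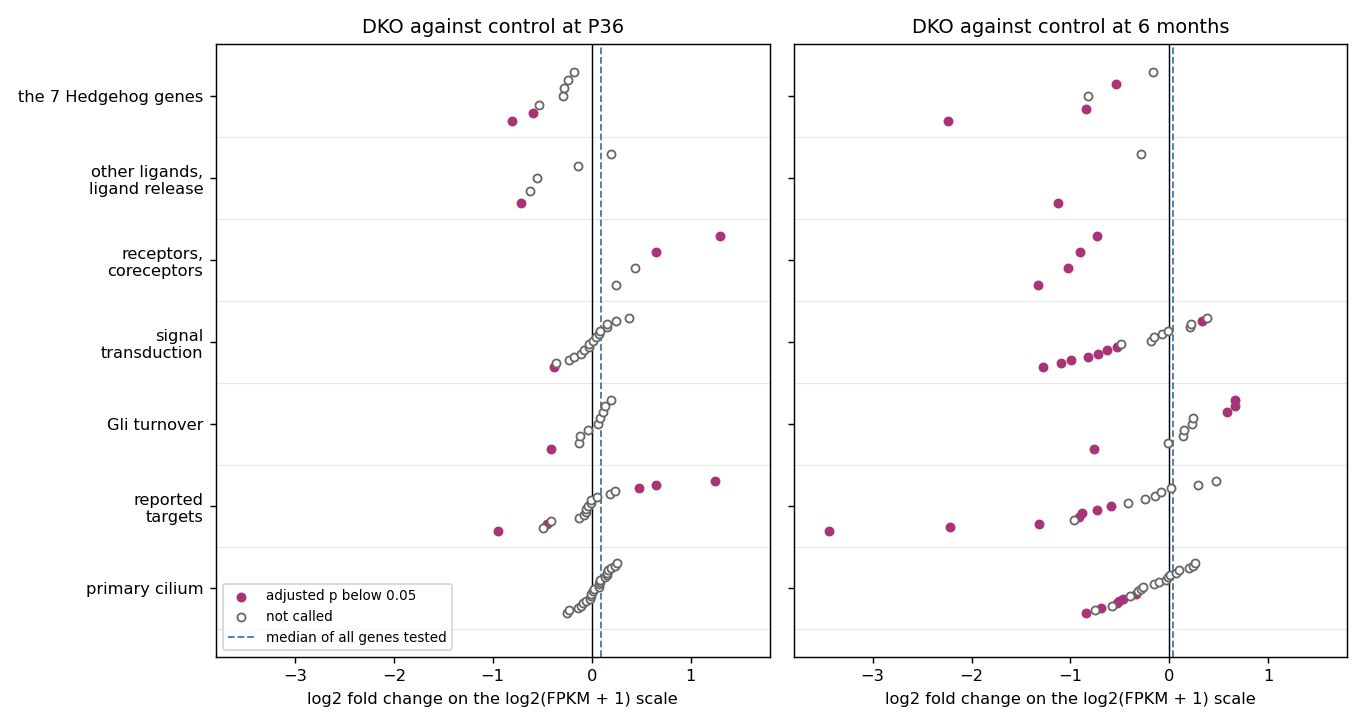
Log2 fold change on the log2(FPKM + 1) scale of each tested gene in the 7 lists of Hedgehog and cilium genes, at P36 on the left and at 6 months on the right, 1 point per gene, filled where the adjusted p was below 0.05. The dashed line marks the median of all genes tested (0.09 and 0.04). At 6 months 19 of 45 other pathway genes fell, against 18.2% of all genes tested. The 19 include Disp1 and Kif7, which passed the filter through control only and had to differ. At P36 5 of 50 fell, against 5.32% of all genes tested.

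Among 17 genes that carry the signal from Smo to Gli, 1 of 16 tested fell at P36 and 0 rose, and 7 fell and 1 rose at 6 months. Of all genes tested 5.32% were lower and 18% higher at P36, and 18.2% lower and 23.2% higher at 6 months. Among the 7, Kif7 was below 1 FPKM in all libraries labelled DKO and passed the filter through control only. The gene called at P36 was Evc2, which anchors the Smo complex at the base of the cilium (6.13 ± 0.36 to 4.48 ± 0.296 FPKM, SD, n = 3; log2 fold change −0.38, limma adjusted p = 0.0339), a call lost without any one of 5 of the 6 libraries. Its partner Evc fell at 6 months from 4.80 ± 0.391 to 1.72 ± 0.339 FPKM (SD, n = 3; −1.10, limma adjusted p = 0.00141). Grk2, the kinase that phosphorylates active Smo, went from 89.2 ± 9.94 to 44.4 ± 4.58 FPKM (SD, n = 3; −0.99, limma adjusted p = 0.00128) and Arrb1, a beta-arrestin recruited to it, from 24.0 ± 0.581 to 9.40 ± 1.73 (SD, n = 3; −1.28, limma adjusted p = 0.000723). These 3 falls at 6 months were called in every alternative in which the gene was tested. The gene that rose, named after its value was seen, was Csnk1a1, a kinase that marks Gli proteins for processing (0.33, limma adjusted p = 0.0308). Sufu, the main inhibitor that binds Gli proteins, stood at 5.74 ± 0.229 and 5.79 ± 1.29 FPKM at 6 months (SD, n = 3) and was not called at either age; it too was named after its values were seen.

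Of 9 genes of Gli turnover tested at 6 months 3 rose and 1 fell, where 23.2% of all genes rose and 18.2% fell. At P36 1 fell and 0 rose, where 5.32% of all genes fell and 18% rose. Spop, which targets Gli2 and Gli3 for degradation, rose from 55.8 ± 2.66 to 84.3 ± 7.66 FPKM (SD, n = 3; log2 fold change 0.58, limma adjusted p = 0.00382), Itch, a ligase for Gli1, from 16 ± 1.05 to 25.9 ± 2.57 (SD, n = 3; 0.66, limma adjusted p = 0.00362) and Hdac2, a deacetylase that acts on Gli1 and Gli2, from 50.9 ± 0.566 to 81.4 ± 8.32 (SD, n = 3; 0.66, limma adjusted p = 0.00245). Btrc, which directs the cutting of Gli3 into its repressor, fell (−0.76, limma adjusted p = 0.00555; named after its value was seen). At P36 the gene that fell was Numb, an adaptor for Itch (−0.41, limma adjusted p = 0.0144), and it was not called without control replicate 1 or DKO replicate 2. These genes act on many other proteins as well.

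Of 18 genes reported as Hedgehog targets in other tissues, 17 were tested at P36, where 3 rose and 2 fell, and 15 at 6 months, where 7 fell and 0 rose. Of all genes tested 18% rose and 5.32% fell at P36, and 23.2% rose and 18.2% fell at 6 months. The 3 of 17 that rose lie near the share of all genes. Gas1 also belongs to the receptor list, and Lhx2 and Sox9 also belong to the list of bulge and hair germ markers. At P36 Mycn, a driver of proliferation, fell from 22 ± 2.65 to 11.1 ± 2.77 FPKM (SD, n = 3; log2 fold change −0.95, limma adjusted p = 0.00601), and Lhx2, a transcription factor of follicle stem cells, from 35.4 ± 1.99 to 25.7 ± 1.22 (SD, n = 3; −0.45, limma adjusted p = 0.00813), a call lost in the joint fit of all 12 libraries (limma adjusted p = 0.265). The genes that rose were Snai1 (1.25, limma adjusted p = 0.00872, a call lost with no filter and in the joint fit, with p up to 0.0607), Gas1 and Cdk6 (0.48, limma adjusted p = 0.0257; named after its value was seen). At 6 months Lhx2 had 46.2, 23.87 and 32.36 FPKM in control and 1.66, 1.36 and 3.84 in the libraries labelled DKO (−3.44, limma adjusted p = 0.00051). Igfbp3, a secreted binding protein of insulin-like growth factors, had 257.87, 183.84 and 206.49 against 45.19, 42.9 and 47.27 FPKM (−2.22, limma adjusted p = 0.000137). At P36 Igfbp3 had stood at 23.5 to 33.1 FPKM in all 6 libraries, so its high level was found in control at 6 months. Bcl2, an inhibitor of cell death, fell at 6 months (−0.91, limma adjusted p = 0.00377).

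Of 23 genes of the primary cilium, the organelle in which the pathway runs, 22 were tested; 0 were called at P36 by limma and 0 under each of the 14 alternatives, with 0 at an unadjusted p below 0.05, and 6 fell and 0 rose at 6 months, where 18.2% of all genes tested fell and 23.2% rose. The smallest p at 6 months was that of Bbs2, a subunit of the complex that moves receptors in and out of the cilium (7.04 ± 0.624 to 3.49 ± 0.223 FPKM, SD, n = 3; log2 fold change −0.84, limma adjusted p = 0.00178). Inpp5e, a ciliary lipid phosphatase (−0.47, limma adjusted p = 0.0141), and Ift27, of the intraflagellar transport complex (−0.69, limma adjusted p = 0.0153), fell too, the latter not called without control 6-month replicate 3. The 56 other pathway genes, without the cilium list, gave 4 higher and 5 lower of 50 tested at P36 and 4 higher and 19 lower of 45 at 6 months, with medians of −0.02 and −0.29 against 0.09 and 0.04 over all genes tested. At P36 18% of all genes tested were higher and 5.32% lower, and at 6 months 23.2% and 18.2%. The 19 lower at 6 months include Disp1 and Kif7, which passed the filter through control only and had to differ.

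The Hedgehog values were set beside those of hair follicle markers, which did not all move with them. From P36 to 6 months in control, 7 of 14 bulge and hair germ markers rose and 3 fell. Over all genes 35.3% rose and 27.9% fell. Hair matrix markers gave 9 of 11 lower and 1 higher, and dermal papilla markers 5 of 14 lower and 1 higher. Each of these lists held at least 1 gene below 1 FPKM in every control library of 1 age, for which the filter selects for a change. Fewer cells of a type and less RNA per cell cannot be told apart in bulk RNA. Of all genes tested at P36, 5.32% were lower and 18% higher. At P36, 8 of 11 hair matrix markers tested fell and 0 rose, and their mean log2(FPKM + 1) was 5.24 to 5.50 in control libraries and 4.62 to 4.90 in those labelled DKO. The hair matrix list includes Vdr, a targeted gene, which was not called at either age. Of 16 hair shaft and inner root sheath markers tested 15 fell, with means of 9.80 to 10.23 and 8.49 to 9.05; Krt71 and Krt25 led this list. DKO replicate 1, the closest to control in Shh and Ptch1, also had the highest mean of its group in both lists, at 4.90 and 9.05. The same library was highest of its group for dermal papilla (2.53), fibroblast (5.90), skeletal muscle (5.11), adipocyte (5.48) and cell cycle genes (4.58). It was lowest for epidermis (8.33), sebaceous gland (5.59), endothelium and smooth muscle (3.42) and Merkel cell and Schwann cell markers (1.91). Bulge and hair germ markers had means of 3.63 to 3.94 and 3.63 to 3.66, with 3 of 13 lower and 1 higher; Fgf18, among the lower, was below 1 FPKM in all libraries labelled DKO. Dermal papilla markers, led by Crabp1 and Wif1, had means of 1.8 to 2.55 and 2.05 to 2.53, with 1 of 14 lower and 1 higher. In both lists the groups overlapped. No marker of these 4 lists was at 0 at P36. Skeletal muscle markers were higher, with 10 of 10 tested called and means of 0.98 to 1.52 against 3.16 to 5.11; 3 of the 10 were below 1 FPKM in all control libraries and so had to differ. Also higher, with 0 lower, were 8 of 11 sebaceous gland, 7 of 10 endothelium and smooth muscle and 6 of 7 adipocyte markers, beside the fibroblast markers given above. Among the 7 adipocyte markers 1 was below 1 FPKM in all control libraries and so had to differ. Without it 5 of 6 were higher. Epidermis markers gave 5 of 9 higher and 1 lower, with means of 7.53 to 7.77 in control and 8.33 to 8.70 in the libraries labelled DKO. The part of these markers in the lower Shh and Ptch1 was not tested.

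At 6 months the hair shaft and inner root sheath genes were near 0 in both genotypes, with means of 0.19 to 0.72 in control and 0.19 to 1.27 in the libraries labelled DKO and up to 8 of 16 genes listed at 0 in a library. By their means, the other follicle marker lists were lower in the libraries labelled DKO. Of 14 bulge and hair germ markers 8 fell and 0 rose, with means of 4.26 to 4.63 and 2.62 to 3.24, of 10 hair matrix markers 6 fell (3.18 to 3.53 and 2.33 to 2.58), and of 11 dermal papilla markers 7 fell (1.8 to 2.06 and 0.93 to 1.49). Of those that fell, 2 bulge, 2 matrix and 4 papilla markers (Wif1, Rspo3, Hey1 and Notum) were below 1 FPKM in every library labelled DKO, so they passed the filter through control only and had to differ; without them 6 of 12, 4 of 8 and 3 of 7 fell. None of these 3 lists had a gene at 0 in any library. In each the groups did not overlap, as for Gli1, Ptch1 and Smo. Sebaceous gland markers went the other way, with 7 of 11 higher and 0 lower. Endothelium and smooth muscle markers gave 5 of 10 lower and 0 higher, epidermis markers 5 of 9 lower and 2 higher, and Merkel cell and Schwann cell markers 3 of 4 lower and 0 higher. Cell cycle genes gave 6 higher and 0 lower of 20, where 23.2% of all genes tested rose and 18.2% fell. The part of these markers in the lower Gli1, Ptch1 and Smo was not tested.

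**Figure D4:**
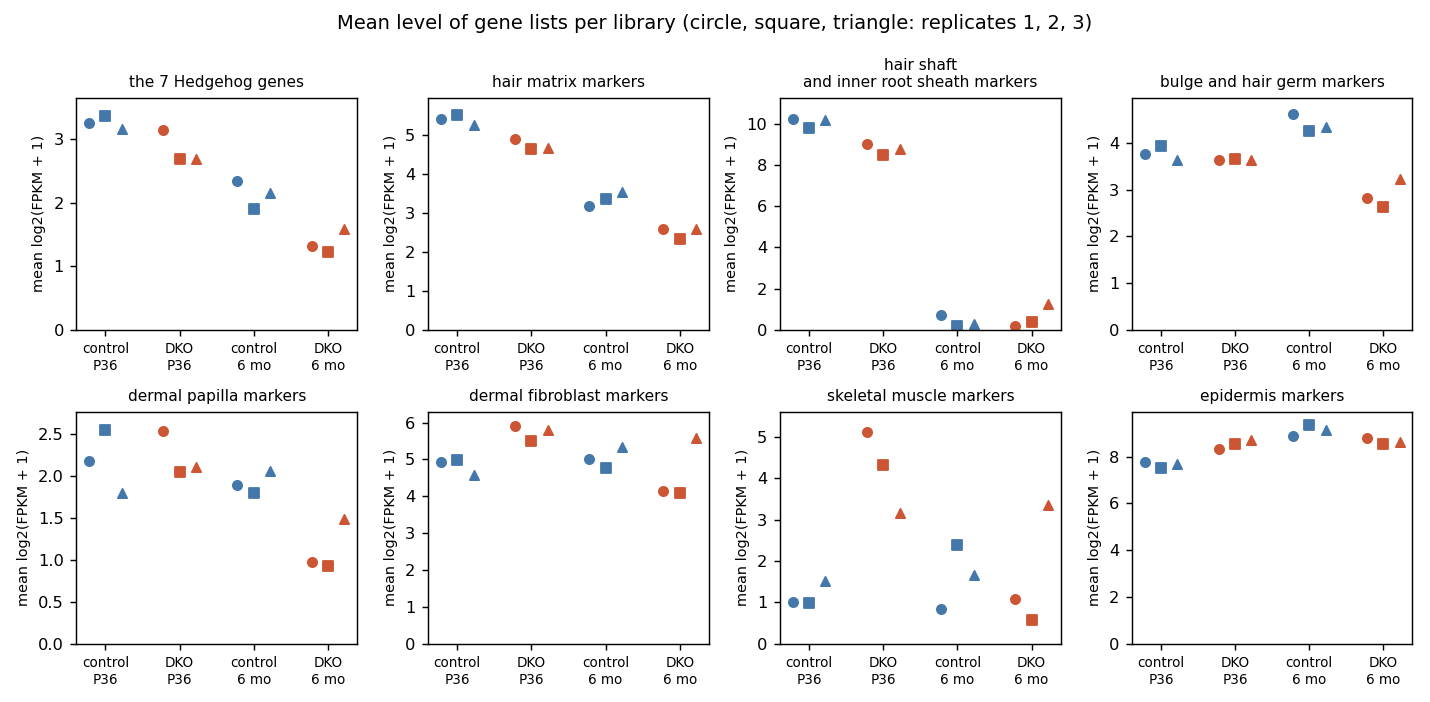
Mean log2(FPKM + 1) of the 7 Hedgehog genes and of 7 marker lists in each library, with control libraries in blue and libraries labelled DKO in orange, and the marker shape giving the replicate. The Hedgehog mean runs from 3.16 to 3.37 in control at P36 to 1.22 to 1.58 in the libraries labelled DKO at 6 months, and hair shaft markers drop from at least 8.49 at P36 to at most 1.27 at 6 months.

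The genes whose pattern over the 12 libraries was most like that of a Hedgehog gene were taken by Pearson's r of log2(FPKM + 1) among 13010 genes. These correlations are descriptions: the libraries fall into 4 groups of age and genotype, so any gene that differs between the groups in the same order scores high. For Shh they were Cldn14 (r = 0.995), Msi1 (0.994), Hunk (0.993), Crisp1 (0.993) and Rtkn2 (0.993). Like Shh, Cldn14, a claudin, had 10.2 FPKM in control and 4.89 in the libraries labelled DKO at P36 and 0.13 and 0 at 6 months. For Gli1 they were Cldn10 (0.972), Krt75, a keratin of the companion layer and hair medulla (0.970), Id3, a target of Bmp signalling (0.967), Coro6 (0.964) and Nkd2, an inhibitor and target of Wnt signalling (0.963). Krt75 kept 48.6 FPKM in control at 6 months and 0.913 in the libraries labelled DKO. For Ptch1 they were Tcf7, a transcription factor of Wnt signalling (0.987), Nkd1 (0.985), Nkd2 (0.981), Cldn10 (0.980) and Bmper (0.979). For Hhip they were Rspo2, which amplifies Wnt signals (0.971), Nup133 (0.968), Wnt10b (0.962), Rpa1 (0.958) and Parp1 (0.955). Cldn10 and Nkd2 stood in the lists of both Gli1 and Ptch1, while the list of Shh shared no gene with them. Shh itself correlated most closely with Gli3 among the other members (r = 0.957) and least with Smo (0.755), and Gli1 with Ptch1 (0.948).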

How the data were processed

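Per age, 1 table was deposited by the authors; it lists FPKM to 2 decimals by gene and library and, per the file headers, the authors' log2 ratio, p-value and q-value; the sources used here do not name the test. HISAT2 2.1.0 and RSEM 1.2.8 were used, per the submitters' processing notes, which name human builds for these mouse samples, so no gene coordinates were taken from the tables. The age of a table comes from its name. Symbols came from a RefSeq table (GRCm38.p6), which matched 19343 of the 19392 identifiers that had values in the P36 table and 17712 of the 17750 in the other. FPKM is not a count, and spacing of low values left 10 to 80 usable genes per pair of libraries, too few to recover depth. At most 0.41% of values were identical between any 2 libraries.

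In R 4.3.3, limma 3.58.1 was fitted with a mean-variance trend to log2(FPKM + 1), for genes that reached 1 FPKM in 3 or more of the libraries fitted. Benjamini-Hochberg adjustment ran over all genes tested, and the threshold for a call was 0.05. Genotype was tested within the 6 libraries of an age; age effects and the difference between ages used all 12. The fit was tested on simulated data. The 7 genes, the lists of pathway genes and markers and the rule for named genes (for each list, up to 3 called genes with the smallest adjusted p, and for markers the 2 most abundant) were chosen with earlier results of these data known. Alternatives were a pseudocount of 0.1, no filter, a filter at 5 FPKM, 2 other scalings, array weights, a joint fit, a replicate block and leaving out each library. The GC box and the counts of lists under the alternatives were added after the values were seen. A gene of the lists is not reported here and was left out of their counts.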

Additional observations from a re-analysis of the deposited data

Results flagged for a closer look

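The genotype effect differed between the ages, by limma's test of the difference itself over all 12 libraries, for 17 of the Hedgehog and cilium genes named here, 15 with a lower and 2 with a higher value at 6 months. Apart from Gli1 these are up to 3 called genes per list with the smallest adjusted p in this test, so their number follows from that rule. In the whole lists 16 of 50 other pathway genes tested were lower and 4 higher. Of 22 cilium genes 5 were lower and 0 higher. Over all genes tested 21.1% were lower and 13.8% higher. Among the 7 core genes this was Gli1 (−1.72, limma adjusted p = 0.0209). For ligand release and reception the differences were −0.99 for Disp1, −2.63 for Gpc3, −1.34 for Cdon and −1.38 for Gas1. Of these, Gas1 and Gpc3 were called higher at P36 and lower at 6 months.

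For genes between Smo and Gli the differences were −1.15 for Grk2, −1.65 for Arrb1 and −0.99 for Evc, and for Gli turnover 0.72 for Spop, 0.60 for Hdac2 and −0.90 for Btrc. Reported targets gave −2.18 for Igfbp3, −3.00 for Lhx2 and −1.16 for Bcl2. Cilium genes gave −0.70 for Ift27, −0.54 for Inpp5e and −0.69 for Ift122, of which Ift122 was not called in 9 of 18 alternatives and Inpp5e not with median-ratio scaling (limma adjusted p = 0.0522). Both Igfbp3 and Lhx2 were high in control at 6 months, at 216 and 34.1 FPKM, and low in the libraries labelled DKO, at 45.1 and 2.29 FPKM. In all genes tested 34.9% were called for this difference.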

How the results depend on the processing

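At P36, where 2 of the 7 genes were called lower, the count was 0 with no filter on low values, 4 with median-ratio scaling, 4 with array weights and 0 to 3 with 1 library left out. All genes called ranged from 1662 to 2660 with 1 library left out (1662 without DKO P36 replicate 2 and 1697 without DKO P36 replicate 3), against 2949. At 6 months the count was 3, but 4 with no filter (Hhip added), 4 in the joint fit of all 12 libraries or without DKO 6-month replicate 3 (Gli2 added), and 1 with a filter at 5 FPKM, which leaves only Smo to be tested. For the difference between ages, with 1 gene called, the count was 2 with a pseudocount of 0.1, with no filter, with median-ratio scaling and with library totals that omit keratin and cornified envelope genes, 3 with array weights, and 0 to 2 with 1 library left out. The difference of Shh turned to −0.20 with a pseudocount of 0.1, and that of Gli3 was −0.03 to 0.29 with 1 library left out, below 0 without control P36 replicate 2. In the other alternatives run, every one of the 7 genes kept its direction in every comparison: 504 values kept direction and call, 22 lost the call, 15 gained it and 2 reversed. The cause was not tested, except where fewer genes or libraries were left. Of 627 values for other named pathway genes 0 reversed and 37 lost the call. Median-ratio scaling moved the median of all genes at P36 from 0.09 to −0.03 and the share of calls that were higher from 77.1% to 58.9%, and totals without keratin moved that share at 6 months from 56% to 36.1%. The replicate numbers did not pair the libraries (correlation of deviations −0.12 to 0.13 at P36 and −0.06 to 0.18 at 6 months). With a replicate block, 1 of the 7 genes was called at P36 (Ptch1) and 3 at 6 months. Unknown depth limits what can be said of Shh and Hhip at 6 months.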
